A study of Homo sapiens with 6 samples.

Results

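The 10 genes described here are the nuclear effectors of WNT signalling with their closest feedback genes, together with VTI1A, the neighbour of TCF7L2. They are TCF7L2, VTI1A, TCF7L1, TCF7, LEF1, AXIN2, CTNNB1, LGR5, SP5 and RNF43, and the measurement is chromatin accessibility. Their members are the peaks of the deposited count table that lie inside 1 of these genes or within 50 kb of it, by the GENCODE annotation of hg38, which gave 256 peaks of 171517 in the table (0.149%). TCF7L2 and VTI1A were chosen on a peak of the same comparison that is described below, a peak in the last exon of VTI1A that opened with treatment. Values of the 67 peaks of these 2 windows are therefore given as a description with no p-value, which also holds where the text counts them among called peaks or places them by the order of their p, and tests are given only for the 189 peaks of the other 8 windows, whose genes were chosen by pathway. All 10 genes and the gene lists were chosen with earlier results of these data known.

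ATAC-seq libraries, 6 in all, were compared, 3 controls and 3 treated with 4 mM dm-αKG, the cell-permeable dimethyl ester of α-ketoglutarate, for 24 h. ATAC-seq counts the fragments that a transposase cuts out of open chromatin. The cells were naive human embryonic stem cells labelled H9, a widely used established line, and the labels name DMSO as the control treatment. Both groups grew at 5% oxygen in tt2iLGö medium with 0.3 µM CHIR99021, 1 µM PD0325901, 2 µM Gö6983 and 10 ng/mL human LIF. CHIR99021 inhibits GSK3 and so can activate WNT signalling, PD0325901 inhibits MEK and Gö6983 inhibits protein kinase C. The GSK3 inhibitor was thus present in the controls too, and WNT activity was not measured in these libraries. The labels give a culture of 48 h before the treatment, whereas the methods describe seeding straight into the medium with or without dm-αKG. By the methods, ATAC-seq was done in 1 experiment with 3 biological replicates, and the labels name 1 line. The p-values thus measure the spread between these cultures only. In a check of chromosome content, 6 of 6 libraries did not match the labelled line, so no result can be given without such libraries, and the line is named here only as labelled. Libraries are numbered by their labels, as control 1 or dm-αKG 1. Counts in peaks lay between 13025674 and 26828622 per library.

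WNT signalling works through the stability of β-catenin. In the absence of a WNT ligand, a complex around AXIN, APC and GSK3 marks β-catenin for destruction. When Frizzled and LRP receptors are engaged, or when GSK3 is inhibited, β-catenin, the product of CTNNB1, enters the nucleus and binds the TCF and LEF proteins, which recognise short sites in promoters and enhancers. TCF7L1 is known mainly as a repressor in pluripotent cells, while TCF7 and LEF1 act mainly as activators and TCF7L2 can do both. AXIN2, SP5, LGR5 and RNF43 are target genes that feed back on the pathway. By the methods, the naive medium tt2iLGö holds a GSK3 inhibitor, whereas PXGL, the paper's other naive medium, holds XAV939 and no CHIR99021.

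The labelled cell type was checked at the promoters of marker genes. All 8 naive pluripotency markers had a peak at the promoter, with mean counts in control between 200.1 and 746. Here and below, counts are normalized for library size and composition. KLF17 differed by -0.39 and SUSD2 by 0.33 on the log2 scale, both past the adjusted threshold of 0.01, and the other 6 naive markers did not pass. The promoters of 6 trophectoderm markers summed to between 1259 and 1349 in the controls and between 1360 and 1431 with dm-αKG, and the 6 primed markers summed to between 1317 and 1361 and between 1128 and 1223. The 8 naive markers summed to between 3208 and 3282 in the controls and between 3328 and 3458 with dm-αKG. The 5 mesoderm markers summed to between 1255 and 1280 and between 1284 and 1297. The naive and mesoderm sums were thus also higher without overlap, as the trophectoderm sums were. The 5 primitive endoderm markers overlapped, at 826 to 923 and 796 to 1002. Only TP63 among the trophectoderm markers and DUSP6 among the primed markers passed the threshold. The 4 fibroblast markers with a promoter peak summed to between 666 and 739 in the controls and between 680 and 774 with treatment. An open promoter is not expression, and the part of such cells in the results below was not tested. In bulk samples, a change in how many cells hold a site open cannot be told apart from a change in how open it is in each cell.

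Sequences of peaks that carry the findings are shown here, from hg38, plus strand, 5′ to 3′. Capitals mark exact matches to the letters of 7 motifs searched on both strands, which were TCF/LEF (ATCAAAG), AP-1 (TGANTCA), NRF2 (TGACNNNGC, which can share bases with AP-1), OCT (ATGCAAAT), SOX (CATTGTT), FOX (TGTTTAC) and TEAD (CATTCC). The most opened VTI1A peak lies at chr10:112815716-112815915. It falls in the 3′ untranslated part of the last exon, so that only its AP-1 match with 10 bases on each side is shown.
VTI1A, chr10:112815718-112815744: gaggacatgaTGAGTCAgtcacgagag
An intronic TCF7L2 peak and an intronic TCF7L1 peak that were higher with treatment also held AP-1 letters. So did a weak upstream TCF7L1 peak that was lower, chr2:85111217-85111416, which is not shown.
TCF7L2, chr10:113087452-113087658: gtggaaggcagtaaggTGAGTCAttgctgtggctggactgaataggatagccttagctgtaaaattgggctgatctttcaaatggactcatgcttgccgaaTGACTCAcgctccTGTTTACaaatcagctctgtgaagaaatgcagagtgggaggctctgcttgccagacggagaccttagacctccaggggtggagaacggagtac
TCF7L1, chr2:85288528-85288728: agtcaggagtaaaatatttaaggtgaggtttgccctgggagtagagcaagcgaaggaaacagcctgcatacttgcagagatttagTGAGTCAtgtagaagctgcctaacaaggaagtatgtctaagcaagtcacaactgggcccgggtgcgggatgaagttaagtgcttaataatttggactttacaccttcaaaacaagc
The TCF7L2 peak that was lower by the smallest p of its window held 1 TEAD match.
TCF7L2, chr10:112992218-112992419: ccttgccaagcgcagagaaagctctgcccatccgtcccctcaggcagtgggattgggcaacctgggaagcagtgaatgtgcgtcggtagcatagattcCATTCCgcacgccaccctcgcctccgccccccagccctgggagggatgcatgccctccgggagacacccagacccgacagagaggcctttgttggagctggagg
A peak upstream of SP5 held 1 TCF/LEF match.
SP5, chr2:170679628-170679848: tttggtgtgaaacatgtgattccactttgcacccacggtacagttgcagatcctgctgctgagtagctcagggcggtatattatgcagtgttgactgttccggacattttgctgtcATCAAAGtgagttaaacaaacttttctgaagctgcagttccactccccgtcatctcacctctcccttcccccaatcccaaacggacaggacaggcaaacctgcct

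The question of the comparison was how chromatin accessibility of the naive cells changed within 24 h of dm-αKG. Calls required an edgeR adjusted p under 0.01 together with a log2 fold change over 1 or under -1. Of the 256 peaks, 3 were called more accessible and 6 less accessible. These are 1.17% and 2.34% of the members, beside 0.782% and 1.96% of all peaks of the table, so the counts lay near the background. Without the fold limit, 11 peaks were higher (4.30%) and 19 lower (7.42%) at an adjusted p below 0.01, beside 3.34% and 6.54% of all peaks. The median log2 fold change was 0.00 over the members and 0.01 over the table. In the 67 peaks of the TCF7L2 and VTI1A windows, 1 was called more and 2 less accessible, which the choice of these genes partly fixes. In the other 8 windows, 2 of 189 were called more and 4 less accessible, and 6 were higher and 12 lower without the fold limit. Of the 256 peaks, 187 lay more than 1 kb from the transcript starts of the member genes and of other protein-coding genes. These 187 held all 9 called peaks, and most calls of the table also lay away from starts. Of its 61873 peaks within 1 kb of any transcript start, 628 were called. Over all 171517 peaks, 1342 were called more and 3365 less accessible.

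**Figure D1:**
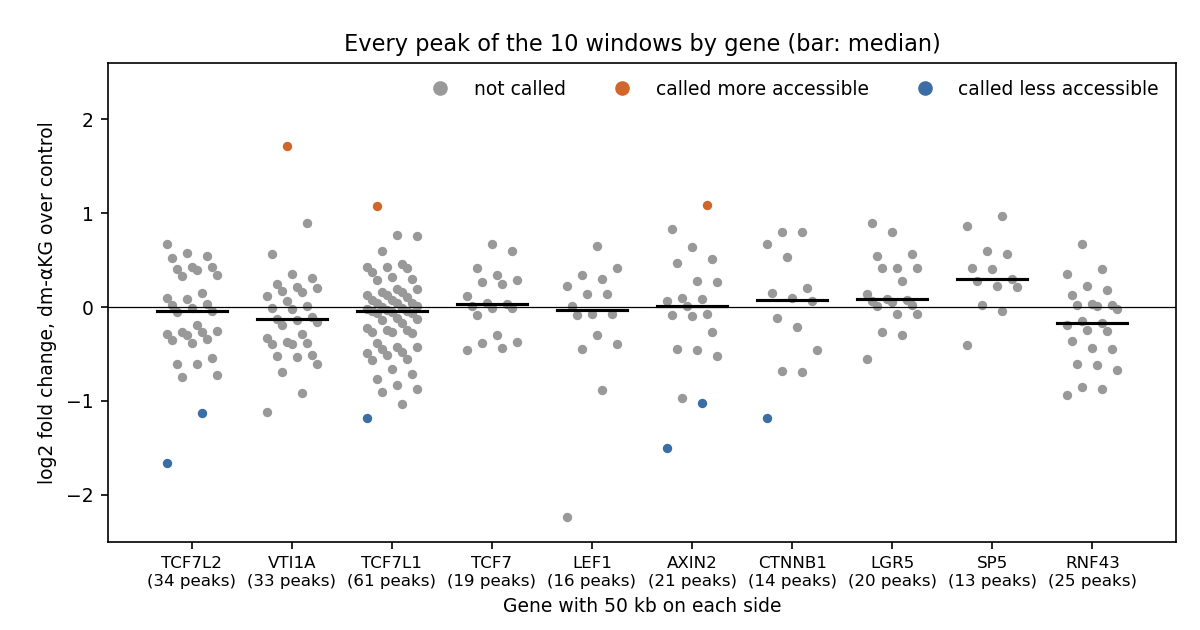
Log2 fold change (dm-αKG over control, vertical axis) of each of the 256 peaks, by gene window, with 1 point a peak and a bar at the median. Medians lie between -0.17 for RNF43 and 0.30 for SP5, and the 3 peaks called more accessible lie in VTI1A, TCF7L1 and AXIN2.

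VTI1A encodes a SNARE protein of vesicle transport and is no WNT gene, but it is the gene next to TCF7L2, which starts 131.5 kb beyond its end. The peak at chr10:112815716-112815915 had counts of 61.7, 68.2 and 64.4 in the controls and 199, 235 and 208 with dm-αKG. The groups did not overlap, and the treated mean was 3.30 times the control mean (214 ± 18.4 against 64.8 ± 3.28, SD, n = 3 each). Its log2 fold change was 1.71 (SE 0.15), the highest of the members, as the choice of the gene fixes. It lay 2.9 kb before the end of VTI1A and 134.4 kb from the 5′ end of TCF7L2. The peak overlapped the authors' list for dm-αKG, with a fold enrichment of 6.09, and not their list for control. A neighbour 1.3 kb further on, at chr10:112817012-112817265, had counts of 88.5, 91.2 and 109 in the controls and 196, 153 and 178 with treatment, a log2 fold change of 0.89 (SE 0.15).

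On the other side of it, some peaks moved the opposite way, while others were flat or slightly higher. The peak 4.5 kb away, at chr10:112811191-112811390, had counts of 90.3, 131 and 81.4 in the controls and 46.6, 44.9 and 76.3 with dm-αKG (log2 fold change -0.91, SE 0.20). Another 3.0 kb away had a log2 fold change of -0.60 (SE 0.17), and its treated counts were also below those of every control. The VTI1A peak with the smallest p among those with lower counts lay 50.0 kb away, at chr10:112765745-112765952, with counts of 241, 282 and 225 against 163, 146 and 154 and a log2 fold change of -0.69 (SE 0.12). Higher and lower peaks thus lay within 4.5 kb of each other in the last part of the gene. Over the 33 peaks of the window, the median log2 fold change was -0.13, and the summed counts were 3007 ± 17.6 in the controls and 2968 ± 112 with treatment (SD, n = 3 each).

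**Figure D2:**
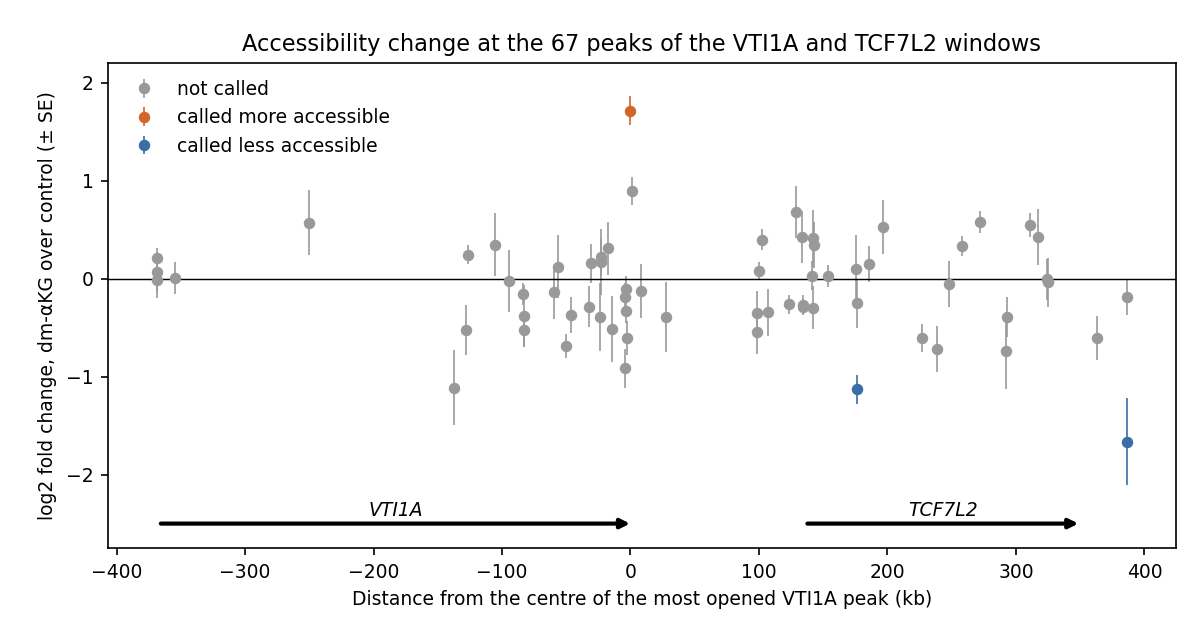
Log2 fold change (dm-αKG over control, vertical axis, bars are SE) of the 67 peaks of the VTI1A and TCF7L2 windows against the distance in kb from the centre of the most opened VTI1A peak, with arrows for the genes and their direction. The opened peak stands at 1.71, its neighbour at 0.89, and the TCF7L2 peaks past the fold limit stand at -1.13 and -1.66.

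TCF7L2 itself, ENSG00000148737 at chr10:112950247-113167678 on the plus strand, had 34 peaks, of which 22 overlapped the gene. The strongest peaks at its 5′ end had lower counts with dm-αKG. The promoter peak at chr10:112949912-112950121 had counts of 477, 456 and 440 in the controls and 383, 382 and 356 with treatment, a log2 fold change of -0.29 (SE 0.08). The adjoining peak over the first exon, at chr10:112950130-112950333, had counts of 354, 346 and 369 against 302, 291 and 293, a log2 fold change of -0.26 (SE 0.09). No treated library reached the lowest control at either peak, whereas the groups overlapped at a weak peak 0.6 kb upstream (0.42, SE 0.27). At an internal transcript start, 176.5 kb into the gene, the direction was the other way. This peak, chr10:113126685-113126896, had counts of 183, 146 and 170 in the controls and 242, 258 and 228 with treatment, a log2 fold change of 0.55 (SE 0.12). At the pair of peaks by starts 190.1 and 190.5 kb in, the groups overlapped, with log2 fold changes of -0.0063 and -0.038. The difference between the 5′ promoter and the internal start was not tested.

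Within the introns of TCF7L2 the same mixture was seen. The peak at chr10:112992218-112992419, 42.1 kb into the gene, was past the fold limit, with counts of 207, 171 and 175 in the controls and 71.0, 92.4 and 95.8 with dm-αKG (log2 fold change -1.13, SE 0.15). Without dm-αKG 1 the log2 fold change was -0.97. An intronic peak 92.1 kb in had a log2 fold change of -0.61 (SE 0.14). The intronic peak with the AP-1 letters, 137.3 kb in, had counts of 156, 182 and 194 against 274, 264 and 247, a log2 fold change of 0.57 (SE 0.11), and all treated libraries lay above the controls. Upstream, 32.4 kb before the gene, another peak had a log2 fold change of 0.40 (SE 0.11). The other TCF7L2 peak counted as called, chr10:113202535-113202734, lay downstream and was weak, with raw counts of 21, 35 and 15 in the controls and 12, 4 and 4 with treatment. Its log2 fold change was -1.66 (SE 0.44), and it lay between -1.98 without dm-αKG 1 and -1.40 without control 2. Summed over its 34 peaks, the window had 4084 ± 17.6 counts in the controls and 3977 ± 90.7 with treatment (SD, n = 3 each).

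The limit of 50 kb cut the 2 windows as follows. On the side of VTI1A the last peak inside was the promoter peak shared with ZDHHC6, at 0.21 (SE 0.11), and the next peak outside, 63.4 kb before the gene, stood at 0.54 (SE 0.14). On the side of TCF7L2 the last peak inside, 34.9 kb beyond the gene, was the weak downstream peak at -1.66, and the next outside, at 54.1 kb, stood at 0.12 (SE 0.25). Between both windows lay 2 more peaks, at -0.29 (SE 0.14) and -0.53 (SE 0.46).

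The 3 peaks of the whole table most like the opened VTI1A peak were sought by the root mean square difference of the 6 centred log2 counts. They lay 34887 bases from the start of TMEM181 (difference 0.08), 28413 bases from that of KIAA1549 (0.13) and 140530 bases from that of KCNA5 (0.13). All 3 were weaker, with control means of 9.51, 7.69 and 6.01 counts and treated means of 30.8, 28.6 and 26.2.

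**Figure D3:**
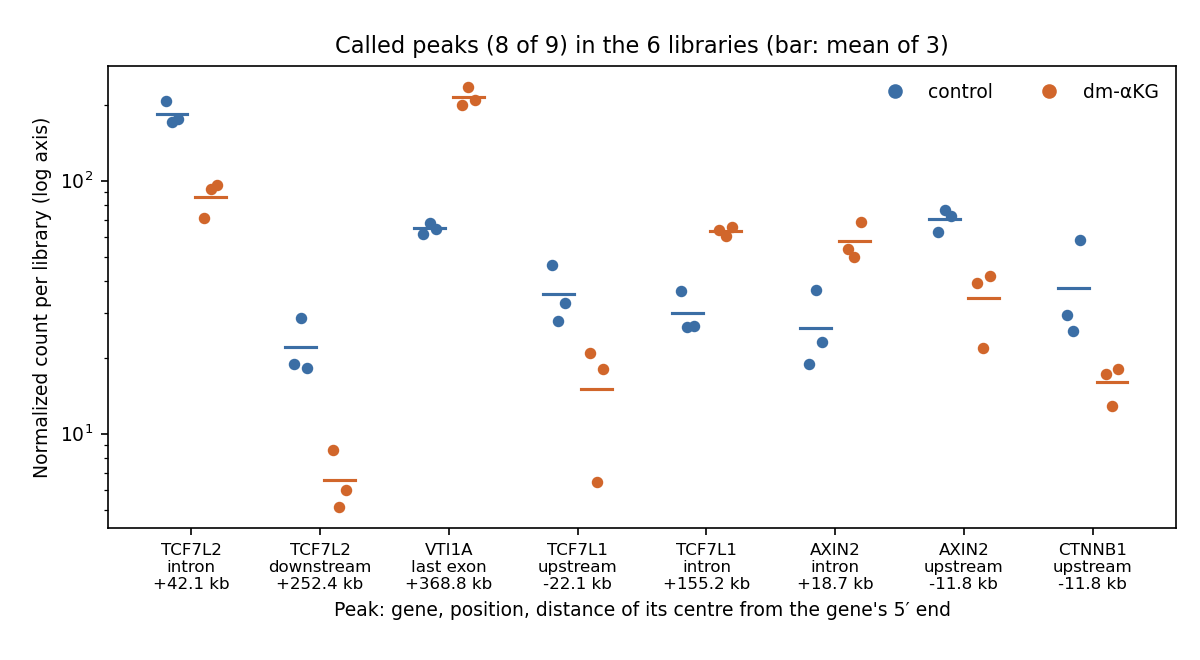
Normalized counts (vertical log axis) of 8 of the 9 called peaks in the 3 control and 3 dm-αKG libraries, with a bar at each mean and the gene, position and distance of the peak on the horizontal axis. Control and treated points do not overlap at any of the 8, which the choice of called peaks in these same libraries largely fixes. Of the 8 peaks, 5 have control means between 21.9 and 37.8.

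Among the other DNA-binding effectors, TCF7L1 had the most peaks, 61, and moved in both directions in its introns. At chr2:85288528-85288728, 155.2 kb into the gene, counts were 36.7, 26.3 and 26.7 in the controls and 63.8, 60.3 and 65.9 with dm-αKG. This peak rose (log2 fold change 1.07, SE 0.24, edgeR adjusted p = 0.000626), although without control 2 it was 0.98 and under the fold limit. The peak at chr2:85135049-85135248, 1.8 kb into the gene and 780 bases from an annotated start of it, fell from 126, 132 and 138 to 76.7, 48.7 and 83.8 (log2 fold change -0.91, SE 0.17, adjusted p = 3.37e-05). Further in, the peak at chr2:85256392-85256593 fell from 201, 250 and 245 to 143, 151 and 129 (-0.71, SE 0.12, adjusted p = 8.00e-06). A weak peak 22.1 kb upstream was called less accessible at -1.18 (SE 0.34, adjusted p = 0.00827), from 46.5, 27.9 and 32.8 to 20.8, 6.41 and 18.0. That call was lost without control 1 (-0.93), control 3 (-1.23) or dm-αKG 2 (-0.86), and under DESeq2 (-1.20) or limma voom (-1.23). In all, 2 peaks of the window were higher (3.28%) and 4 lower (6.56%) at the threshold, near the 3.34% and 6.54% of all peaks. The strongest promoter peak of TCF7L1 did not differ beyond the spread (192 ± 16.7 against 182 ± 26.6).

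TCF7 and LEF1, the activating members, had overlapping groups at their promoter peaks. The TCF7 promoter peak had counts of 377, 372 and 366 in the controls and 365, 366 and 400 with treatment (log2 fold change 0.01, SE 0.09, adjusted p = 0.941). A peak 12.5 kb upstream of TCF7, at chr5:134102097-134102301, fell from 190, 229 and 211 to 142, 165 and 157 (-0.45, SE 0.13, adjusted p = 0.00577). It missed the threshold without control 2 (-0.37), control 3 (-0.45) or dm-αKG 1 (-0.37), and under DESeq2 (-0.45). The peak that rose in the TCF7 window, at 0.60 (SE 0.15, adjusted p = 0.00271), lies at the promoter of SKP1, a ubiquitin ligase subunit, and missed it without control 1 (0.50), control 3 (0.54) or dm-αKG 3 (0.45), and under DESeq2 (0.61). At the LEF1 promoter peak, counts were 120, 87.1 and 147 in the controls and 129, 91.1 and 129 with treatment, so the groups overlapped fully. None of the 16 peaks of the LEF1 window passed the adjusted threshold by edgeR, with 4 at an unadjusted p below 0.05, while DESeq2 gave 0 and limma voom 1. The lowest was an intronic peak with raw counts of 17, 11 and 6 against 0, 4 and 2 (log2 fold change -2.23, SE 0.70, adjusted p = 0.0161), a fitted value that rests on few fragments.

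CTNNB1, the gene of β-catenin, had counts at its promoter peak of 186, 161 and 181 in the controls and 172, 208 and 172 with dm-αKG (log2 fold change 0.06, SE 0.13, adjusted p = 0.787). A weak peak 11.8 kb upstream, at chr3:41182824-41183023, was called less accessible at -1.18 (SE 0.34, adjusted p = 0.00788), from 29.5, 25.5 and 58.3 to 17.2, 12.8 and 18.0. Control 3 held the highest count, and without it the log2 fold change was -0.77 and the call was lost. The call was also lost without control 1 (-1.32), dm-αKG 1 (-1.25) or dm-αKG 2 (-1.06), and under DESeq2 (-1.21) or limma voom (-1.03). The other peak that fell, at -0.69 (SE 0.20, adjusted p = 0.00883), lay 112.5 kb from the 5′ end of CTNNB1 and beyond its 3′ end.

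AXIN2, the scaffold of the destruction complex and a direct target of the pathway, had 21 peaks. Of these, 3 were lower (14.3%) and 1 higher (4.76%) at the threshold, beside 6.54% and 3.34% of all peaks. Upstream of the gene, at chr17:65573315-65573515, a peak fell from 62.6, 76.4 and 72.9 in the controls to 39.4, 21.8 and 41.9 with dm-αKG (log2 fold change -1.02, SE 0.23, adjusted p = 0.000692). It dropped under the fold limit without control 2 (-0.95), control 3 (-0.998) or dm-αKG 2 (-0.80). Inside the gene, 11.2 kb from its 5′ end, another peak fell from 92.1, 76.4 and 68.0 to 35.9, 52.6 and 34.4 (-0.97, SE 0.22, adjusted p = 0.000556). In contrast, the intronic peak at chr17:65542864-65543063 rose from 18.8, 37.0 and 23.1 to 53.8, 50.0 and 68.9 (1.09, SE 0.26, adjusted p = 0.00137) and overlapped only the dm-αKG list. It fell under the fold limit without control 1 (0.89) or dm-αKG 3 (0.96), and missed the adjusted threshold under DESeq2 (1.11). The AXIN2 promoter peak had overlapping groups, with 349, 314 and 360 against 389, 327 and 365 (0.09, SE 0.09, adjusted p = 0.512).

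LGR5, a receptor for R-spondins that amplifies WNT signals, was the only 1 of the 8 other genes with peaks past the threshold in the higher direction alone. These were 2 of its 20 peaks (10%), beside 3.34% of all peaks. The intronic peak at chr12:71581267-71581479, near the 3′ end, rose from 86.8, 104 and 65.6 to 138, 171 and 184 (log2 fold change 0.89, SE 0.16, adjusted p = 8.58e-06). It passed the threshold in all 13 alternative fits. A peak 15.6 kb into the gene rose from 130, 141 and 129 to 184, 196 and 219 (0.57, SE 0.13, adjusted p = 0.000777). The peak 0.8 kb upstream had 41.1, 37.0 and 25.5 against 55.9, 69.3 and 59.9 (0.80, SE 0.24, adjusted p = 0.0113) and just missed it. Over its 20 peaks, LGR5 summed to 2083 ± 21.9 counts in the controls and 2282 ± 84.9 with treatment (SD, n = 3 each). The groups did not overlap, and the treated mean was 1.10 times the control mean. Non-overlap also held for the sums of SP5, higher (1.21 times), and of AXIN2 (0.96) and RNF43 (0.93), both lower. How often sums of other windows separate so was not computed, and an exact permutation test of 3 against 3 cannot go below 0.1.

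SP5, a zinc finger repressor induced by WNT, had the highest median, 0.30 over 13 peaks, of which 11 had a positive log2 fold change. None of them passed by edgeR, with 6 at an unadjusted p below 0.05, and none by DESeq2 or limma voom. Its summed counts were 711 ± 19.9 in the controls and 857 ± 75.5 with dm-αKG. The SP5 peak with the TCF/LEF letters, 35.6 kb upstream, had 28.6, 22.2 and 37.7 in the controls and 62.4, 64.1 and 26.9 with treatment (0.87, SE 0.27, adjusted p = 0.0151), and dm-αKG 3 lay within the controls. RNF43, the ubiquitin ligase that removes Frizzled receptors, had the lowest median, -0.17 over 25 peaks. The pair of peaks that fell in its window, at -0.67 (SE 0.16, adjusted p = 0.000865) and -0.45 (SE 0.09, adjusted p = 0.000167), lay beyond its 3′ end near the start of TSPOAP1-AS1. At the RNF43 promoter, counts were 574, 484 and 463 in the controls and 579, 580 and 573 with treatment (0.18, SE 0.08, adjusted p = 0.0889).

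At the promoter peaks, then, each the strongest within 1 kb of a start, none of the 8 passed the adjusted threshold of 0.01 by edgeR, DESeq2 or limma voom. Of these 8, 1 had an unadjusted p below 0.05 by edgeR. A weaker TCF7L1 peak within 1 kb of another annotated start did pass by edgeR, as given above. The smallest log2 fold change of the 8 promoter peaks was -0.06 at TCF7L1 and the largest 0.18 at RNF43. In each of the 8 the treated and control libraries overlapped, and the share of such overlap over all promoter peaks was not computed.

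**Figure D4:**
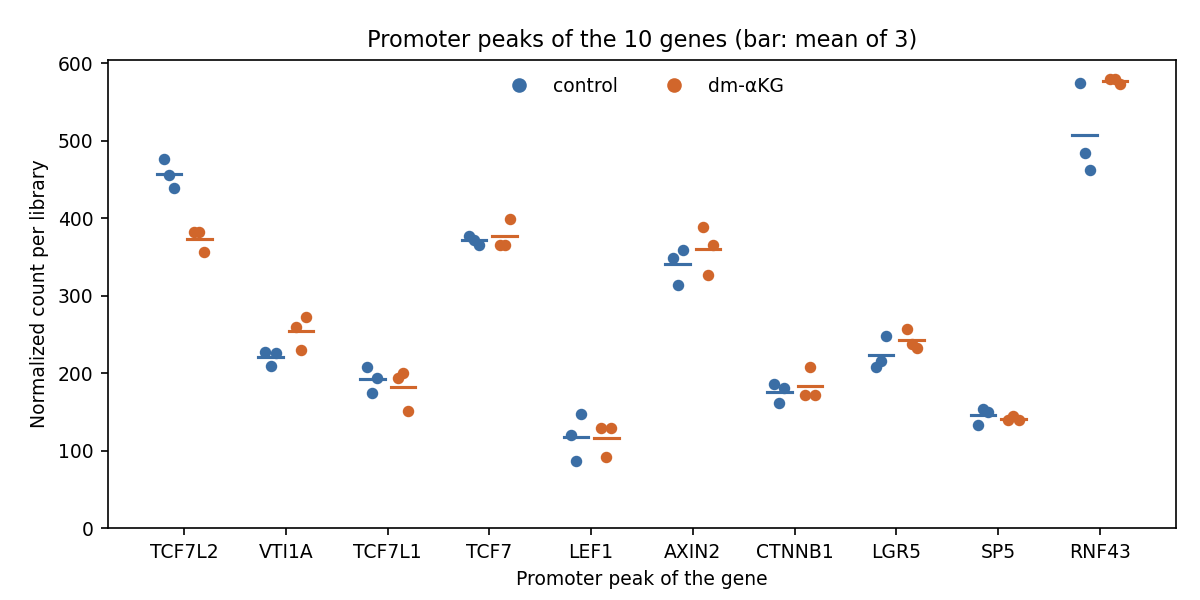
Normalized counts (vertical axis) of the promoter peak of each of the 10 genes in the 3 control and 3 dm-αKG libraries, with a bar at each mean. TCF7L2 is the only gene whose 3 treated points all lie below its controls, VTI1A has all 3 above, and the other 8 overlap. The share of all promoter peaks that separate so was not computed. In the wider WNT list described below, FZD1 (below) and CTNNBIP1 (above) also separated without passing, at edgeR adjusted p of 0.224 and 0.317. WNT7A, DVL3, CDX1 and ROR2 separated and passed.

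The other genes of the pathway were read at their promoters, from a list of 91 genes, of which 86 had a promoter peak. Of these, 3 were higher and 1 lower at an adjusted p below 0.01, beside 4.23% higher and 2.72% lower of all 61873 peaks within 1 kb of a transcript start. None reached the fold limit for a call. WNT7A, a ligand, rose from 89.4, 132 and 97.2 to 185, 150 and 153 at chr3:13877977-13878184 (log2 fold change 0.62, SE 0.15, adjusted p = 0.00109). DVL3, a Dishevelled protein that relays the receptor signal, rose from 109, 120 and 130 to 181, 154 and 198 at chr3:184156368-184156582 (0.57, SE 0.14, adjusted p = 0.00137). CDX1, a homeobox target of WNT, rose from 76.0, 74.8 and 93.5 to 132, 113 and 118 at chr5:150167242-150167451 (0.60, SE 0.17, adjusted p = 0.00595). ROR2, a receptor of non-canonical WNT ligands, fell from 345, 309 and 322 to 242, 227 and 201 at chr9:91950219-91950425 (-0.53, SE 0.10, adjusted p = 5.37e-05). ROR2 passed in all 13 alternative fits. WNT7A and DVL3 were lost without control 1 (0.51 and 0.52) or dm-αKG 1 (0.50 and 0.56). CDX1 was lost without control 1 (0.56), control 2 (0.54), dm-αKG 1 (0.52) or dm-αKG 2 (0.64). DESeq2 gave neither WNT7A (0.62) nor CDX1 (0.59) past the threshold. No peak of the 17 ligands, 11 secreted inhibitors or 10 nuclear cofactors other than WNT7A passed, by the same test.

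**Figure D5:**
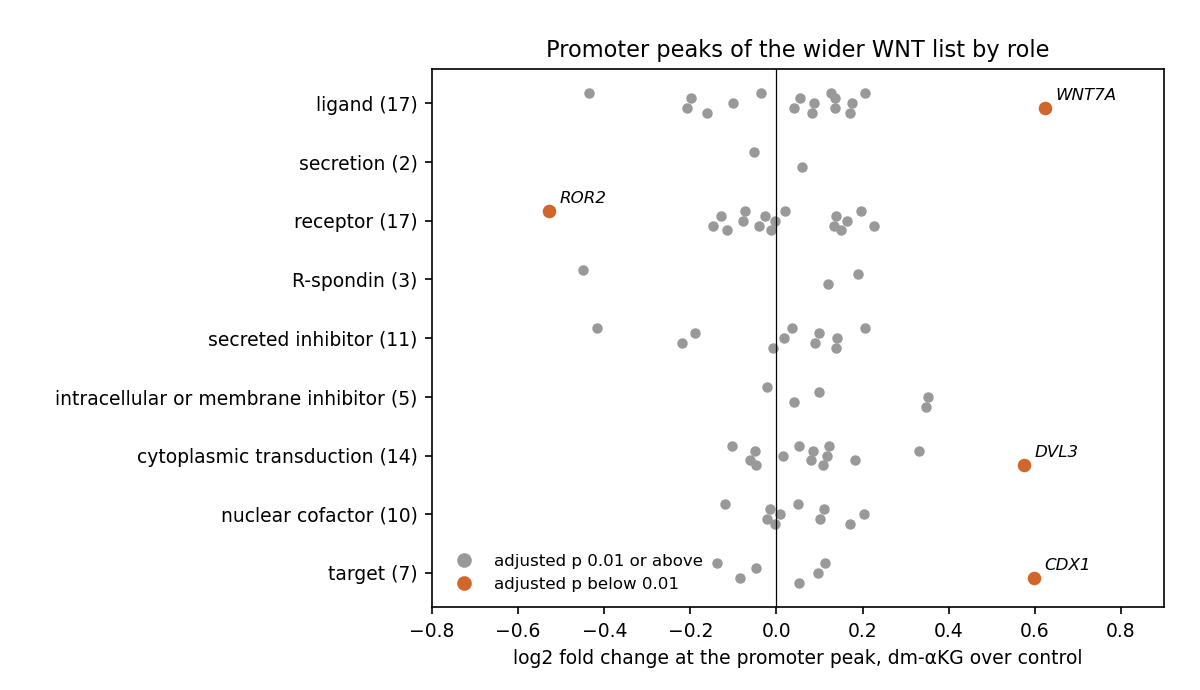
Log2 fold change (dm-αKG over control, horizontal axis) at the promoter peaks of 86 WNT genes, by role, with 1 point a gene and the number of genes in brackets. Points past an adjusted p of 0.01 are coloured and named, and lie at 0.62, 0.57 and 0.60 on the right and at -0.53 on the left.

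The letters of the TCF/LEF motif were more frequent in the members than in the table. They stood within 200 bases around the centre of 15 of 256 member peaks (5.86%, Wilson 95% interval 3.58 to 9.44%) and of 1.80% of all peaks. FOX letters were also more frequent, in 13 member peaks (5.08%, 2.99 to 8.49%) and 2.85% of all peaks. TEAD letters stood in 48 (18.8%, 14.4 to 24.0%) and 14.6%, and for these, AP-1, NRF2, OCT and SOX the interval held the table's share. AXIN2 had 3 peaks with TCF/LEF letters, and VTI1A, LEF1, LGR5, SP5 and RNF43 had 2 each. TCF7L1 and TCF7 had 1 each, and TCF7L2 and CTNNB1 had none. None of these 15 passed the adjusted threshold by edgeR, DESeq2 or limma voom, and 7 had an unadjusted p below 0.05 by edgeR. Their median log2 fold change was 0.02. Over the table, 93 of 3080 peaks with TCF/LEF letters were higher and 267 lower at the adjusted threshold by edgeR. The AXIN2 promoter peak holds these letters, as does the peak 0.8 kb into AXIN2 (49.2, 60.8 and 44.9 against 74.6, 85.9 and 61.4, adjusted p = 0.0734). In the RefSeq promoter windows of GRCh38.p14, matched for 8 of the 10 genes (not AXIN2 and LGR5), 1 of 8 held the letters, that of SP5, beside 2.62% of all 35116 promoters.

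Motifs were also read by direction. AP-1 letters stood in 3 of the 11 higher member peaks, those in VTI1A, TCF7L1 and 1 in TCF7L2, and in 1 of the 19 lower ones, beside 12.4% and 6.17% of the higher and lower peaks of the table. TEAD letters stood in 2 of the 11 higher and 8 of the 19 lower member peaks, beside 11.0% and 23.1% of the table's. FOX letters stood in 2 higher and no lower member peaks, beside 5.20% and 2.54%. TCF/LEF letters stood in no higher and no lower member peaks, beside 1.62% and 2.38%. The order was the opposite of the table's for 3 motifs. NRF2 letters stood in no higher and 3 lower member peaks, beside 13.02% and 8.56%, OCT letters in 1 and none, beside 1.40% and 5.81%, and SOX letters in 2 and none, beside 1.52% and 4.94%. Outside the TCF7L2 and VTI1A windows, AP-1 letters stood in 1 of 6 higher and 1 of 12 lower peaks. These are descriptions over few peaks, and 12 of these 30 peaks lie in the TCF7L2 and VTI1A windows. A match of letters is not a bound site.

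In the authors' peak lists, which pool the 3 libraries of a treatment, 189 of the 256 peaks (73.8%) overlapped both lists, 38 (14.8%) only that of control and 29 (11.3%) only that of dm-αKG. Over the table these shares were 77.4%, 11.7% and 10.9%. In the TCF7L2 and VTI1A windows, 15 of 67 peaks (22.4%) were listed for control only and 3 for dm-αKG only, given as a description. In the other 8 windows, 23 of 189 peaks (12.2%) were listed for control only and 26 (13.8%) for dm-αKG only. The Wilson intervals given above for motif letters cover counting error over peaks only, and neighbouring peaks are not independent.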

How the data were processed

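The members and the gene lists were chosen with earlier results of these data known. ATAC-seq of naive cells in tt2iLGö was used, 3 controls and 3 with 4 mM dm-αKG. Per the labels and methods, the authors trimmed paired reads, aligned them with Bowtie 2 to hg38 through the ENCODE pipeline, called peaks with MACS2 per replicate, kept reproducible ones, shortened them to 200 bases around the summit, merged the 2 lists with bedtools 2.28.0 and counted filtered reads per library. Shifting of reads for the transposase is not described in the sources used here beyond the defaults of that pipeline. The deposited table holds raw counts without normalization. The deposited peak lists, 1 per treatment over pooled replicates, hold for each peak a fold enrichment ratio and a q-value as −log10, used only to describe overlap.

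Counts of all 171517 peaks were fitted in R 4.3.3 with edgeR 4.0.16 (TMM scaling, quasi-likelihood test, treatment as the only term) and p-values adjusted by Benjamini-Hochberg over all peaks. SE was obtained as |log2 fold change|/√F. On simulated counts with 200 changed peaks the fit was tested before use. Alternatives were DESeq2 1.42.0, limma 3.58.1 with voom, RLE, total-count and loess scaling, at least 10 counts in every library, a replicate block, each library left out, other windows and an adjusted p of 0.05. With 3 against 3, an exact permutation test cannot go below 0.1. Pairs of replicates differed by more than sampling noise (chi-square over its degrees of freedom, 1.80 to 2.16), so each counts as 1 sample.

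A gene's promoter peak is the one of highest mean count with its centre within 1 kb of a GENCODE 44 transcript start. Named peaks were the promoter peaks, all called peaks but 1 that is not reported here, the peak of smallest p in each direction per gene, promoter peaks of the wider list past the threshold, the peaks at the 50 kb limit, and the 3 most alike peaks; further peaks beside the opened VTI1A peak, in TCF7L2, TCF7L1, AXIN2 and LGR5, and with TCF/LEF letters were chosen after their values were seen. Counts limit precision at weak peaks: raw counts of member peaks ran from 0 to 912.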

Additional observations from a re-analysis of the deposited data

How the results depend on the processing

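The 3 peaks called more accessible became 2 to 4 and the 6 called less accessible 4 to 7 when 1 library was left out. Without the fold limit, the 11 higher peaks became 8 to 11 and the 19 lower ones 10 to 15, with the smallest count of lower peaks without dm-αKG replicate 1. The count of 0 among the 8 promoter peaks held in these fits, and the 4 promoter peaks of the wider list became 1 to 5. DESeq2 gave 3 called less accessible, 7 higher and 11 lower without the fold limit, and 2 of the wider list; over all peaks it called 793 more and 2479 less accessible, beside 1342 and 3365 by edgeR. At an adjusted p below 0.05, 20 peaks were higher and 35 lower. Windows of 0 kb held 156 peaks, with 1 called less accessible and 9 lower, and windows of 10 kb held 173, with 1 and 10. Both kept 3 peaks called more accessible. With a summit inside the peak required, 67.6% of members were in both lists. The other counts stayed within 1.5 times of those above under the remaining alternatives.

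Small promoter changes turned direction when 1 library was left out, with log2 fold changes between -0.13 and 0.035 for TCF7L1, -0.026 and 0.042 for TCF7, -0.17 and 0.18 for LEF1, -0.030 and 0.12 for CTNNB1 and -0.10 and 0.0076 for SP5. The cause was not tested. Of 465 alternative values of 36 named peaks, 401 kept their direction and side of the threshold, 52 lost it, 3 gained it and 9 turned direction.

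With the replicate number as a block, 3 peaks were called more and 5 less accessible, 12 were higher and 17 lower, and the counts of promoter peaks were 0 and 4; the LEF1 promoter peak moved to -0.00066. The block ended the call of the CTNNB1 peak 11.8 kb upstream (-1.14). Libraries with the same number did not deviate together (correlations -0.016, -0.0014 and 0.013), and only number 3 correlated best with its own partner, so the numbers were not taken as pairs.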
